A study of Gallus gallus with 21 samples.

Results

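Epidermal keratinocyte and cornification genes were followed through the parts and stages of the chicken contour feather follicle. A list of 40 genes was drawn up by name, covering keratins, epithelial transcription regulators, junction and adhesion genes, epidermal lipid genes and genes of the cornified layer, and was matched to the gene symbols of the deposited tables. Earlier results of these data were known when this list and the other gene lists were chosen. Their counts beside the shares over all genes are thus descriptive. Of the 40 genes, 32 were found among the 23760 distinct gene names of the series. The table of experiment 1 held 27 of them and the table of experiment 2 held 32. KRT75, KRT18, KRT19, OVOL1 and HEPHL1 were found in experiment 2 alone, and KRT8, GRHL1, GRHL2, ITGB4, DSC2, PKP3, PERP and EVPL were not analysed here. The keratins and the cornification genes belong to multigene families whose copies can share reads, so single values of these genes are uncertain.

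The libraries were made from total RNA of contour feather follicles of untreated adult males of the white leghorn breed, aged 1 year. Experiment 1 held the dermal papilla, the dermal sheath, the peripheral pulp and the central pulp, with 3 libraries of each, all from early growth follicles. Experiment 2 held pulp in early growth, in late growth and near rest, with 2 libraries of each, and the apical dermal papilla of the resting follicle, with 3 libraries. The labels do not say whether the libraries of a group came from separate birds, so the p-values measure the spread between these libraries, which may be technical.

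In the feather follicle, an epidermal layer wraps a mesenchymal core of dermal papilla and pulp and builds the feather from the outside of that core. Basal keratinocytes hold to the basement membrane, express the keratins KRT5 and KRT14 and depend on the transcription factor TP63. As they move outward they switch to other keratins, strengthen their desmosomes and lay down cornified proteins that transglutaminases crosslink. Levels are given as TPM, a share of all transcripts that is already divided by transcript length. Differences are on the log2(TPM + 1) scale with their standard error (SE) and understate the change of weakly expressed genes. A gene was called changed at a limma p adjusted over all genes tested under 0.05. In bulk tissue, fewer epidermal cells and less RNA per cell cannot be told apart.

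The labels name dermal and pulp tissue, and each library held mesenchymal transcripts. The summed level of the 16 fibroblast genes followed was 26087 to 32488 TPM in the peripheral pulp and 30862 to 33252 TPM in the dermal sheath. Smooth muscle genes summed to 31216 to 34467 TPM in the dermal papilla, 16491 to 21326 TPM in the sheath, 1057 to 1537 TPM in the central pulp and 325 to 445 TPM in the peripheral pulp. Blood transcripts also differed, with erythroid genes at 3673 to 4288 TPM in the sheath and 1054 to 1285 TPM in the papilla of the growing follicle. The part of these other cell types in the results was not tested.

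Epidermal genes took up a small share of every library, and that share differed widely between tissues. The epidermal genes found in each table summed to 1.20, 0.821 and 0.985% of the TPM in the 3 dermal sheath libraries and to 0.0585, 0.0359 and 0.0415% in those of the dermal papilla. The peripheral pulp libraries held 0.452, 0.102 and 0.103%, and the central pulp libraries 0.0195, 0.0355 and 0.0302%. In experiment 2 the shares were 0.146 and 0.174% in early growth pulp, 0.0858 and 0.0865% in late growth pulp, 3.15 and 1.61% near rest and 0.0338, 0.0484 and 0.0388% in the resting apical papilla. Near resting pulp thus held the highest share of the experiment and the resting apical papilla the lowest.

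Libraries stood apart from their own group in peripheral pulp and in near resting pulp. In peripheral pulp, library 1 was higher than the mean of libraries 2 and 3 for 22 of the 23 genes with at least 1 TPM on both sides, and more than 2-fold higher for 17, with a median ratio of 4.53. Its DSP level, for example, was 8.92 times that mean and its EDQM3 level 6.22 times, while KRT5 stood at 2.17 times and EDCH3 was the one gene below it. In near resting pulp, library 1 was above library 2 for 21 of 29 genes and more than 2-fold above it for 11. The largest ratios were those of 4 genes, with KRT14 8.17 times, KRT6A 8.00 times, LAMB3 5.62 times and KRT5 5.59 times as high in library 1. A few genes of the outer layers went the other way, and TGM3, ENDOU and EDYM2 were 2.88, 2.97 and 4.22 times as high in library 2. EDQM3, GJB6, ELOVL4 and EDCH3 were close to equal in the 2 libraries, at 0.955, 0.943, 0.956 and 0.967 times. The epidermal genes whose call changed without library 1 of either group are named beside the comparison.

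**Figure D1:**
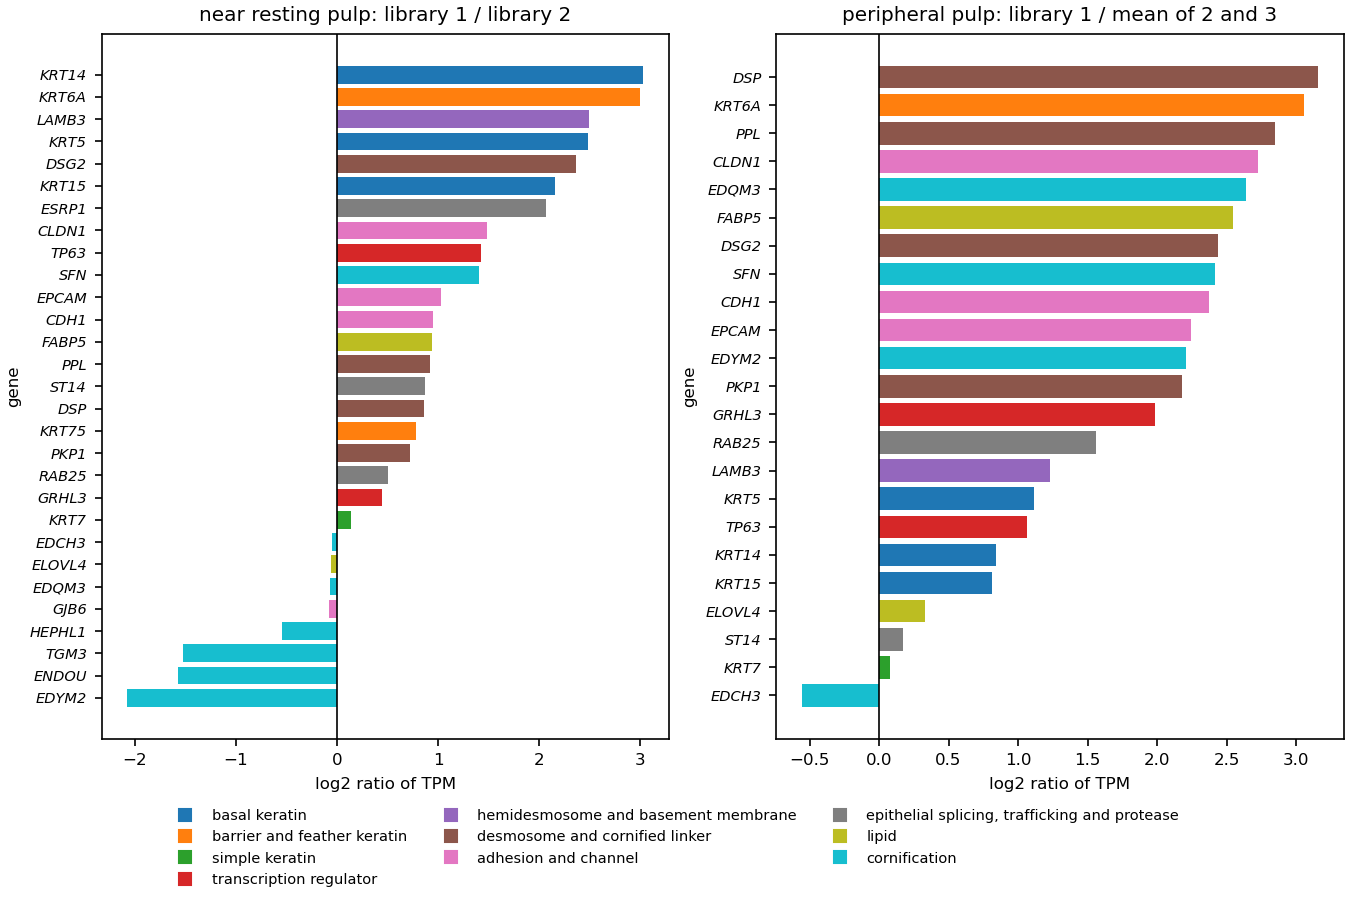
Ratio of library 1 to library 2 in near resting pulp and of library 1 to the mean of libraries 2 and 3 in peripheral pulp, as a log2 ratio of TPM, with 1 bar per epidermal gene coloured by role. In peripheral pulp 22 of 23 bars lie above 0, and in near resting pulp 21 of 29 do, with TGM3, ENDOU and EDYM2 farthest below it.

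In the growing follicle, the dermal sheath held the most epidermal transcript. For 21 of the 27 genes in the table the sheath had the highest mean of the 4 parts, and for 15 of these every sheath library lay above every other library. How often this holds over all genes was not counted, so these numbers only describe the list. The peripheral pulp had the highest mean for KRT7, ESRP1, EDQM3 and EDYM2, in no case clear of all other libraries. For ESRP1 and EDQM3 that mean rested on library 1, and libraries 2 and 3 lay below every sheath library. The central pulp had the highest mean for TGM3 and ST14, and for both it was clear of all others. Compared with the dermal papilla, 24 of the 27 genes were higher in the sheath, 0 were lower and 3 were not called, where 16.0% of all genes tested were higher and 21.7% lower. The median log2 difference over the analysed members was 3.58, against -0.06 over every gene tested. All 27 genes passed the filter on low values, and the deposited table itself holds genes with a mean of at least 1.00 TPM. TGM3 passed through the central pulp alone. DSG2 and ESRP1 reached 1 TPM in 3 libraries only with those of the sheath. GJB6 reached a mean of 1.00 TPM only with them. These genes stay in the counts against the sheath, so a place of theirs among the higher genes is partly set by these limits.

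**Figure D2:**
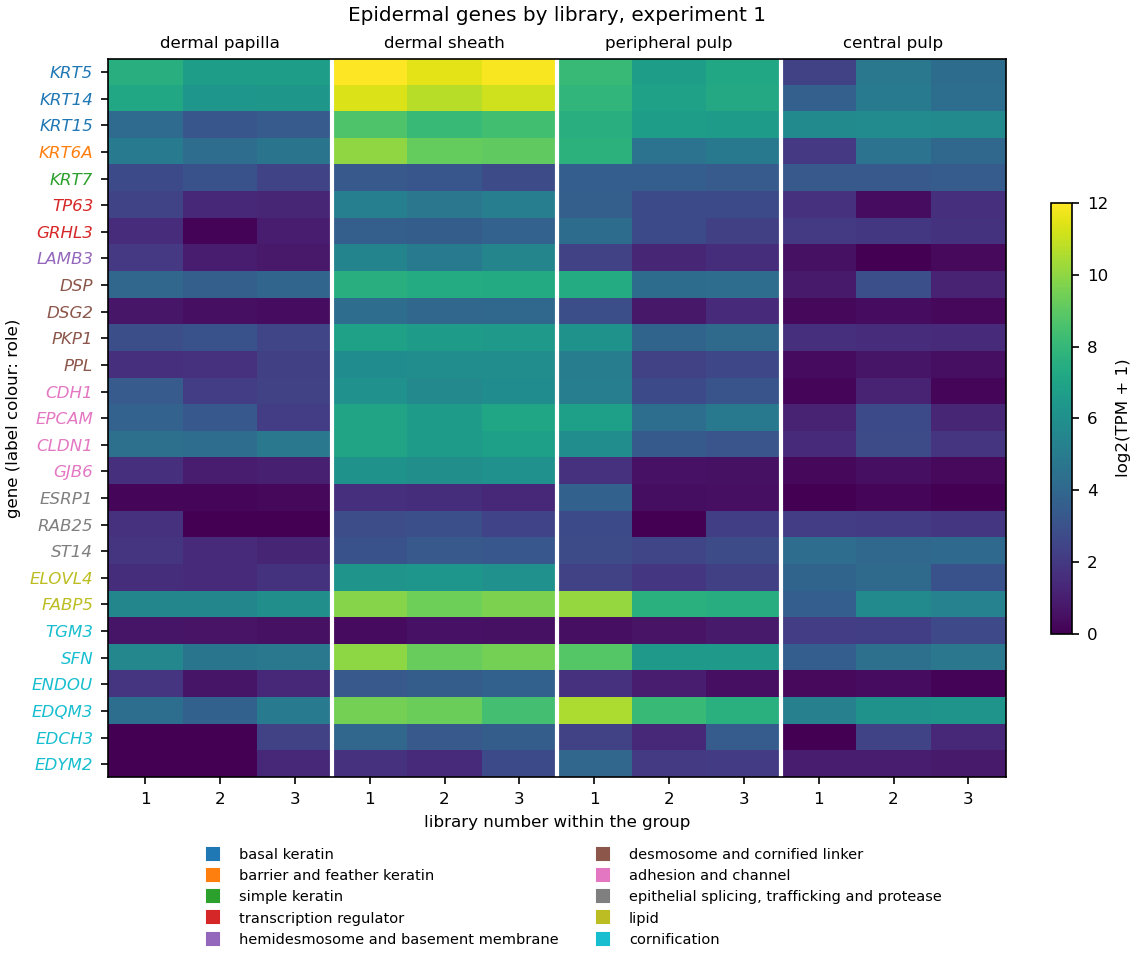
Level of each of the 27 epidermal genes in the 12 libraries of experiment 1, as log2(TPM + 1), with 1 row per gene, grouped by role, and 1 column per library. Brighter colours are higher levels. The 3 dermal sheath columns are the brightest for most rows, peripheral pulp library 1 stands out from libraries 2 and 3, and TGM3 and ST14 are highest in central pulp.

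The basal keratins set the scale of the sheath. KRT5, the partner of KRT14 in the filaments of basal keratinocytes, stood at 4148, 2931 and 3874 TPM in the 3 sheath libraries and at 189.6, 103 and 102 TPM in the dermal papilla. In the peripheral pulp it was at 269.5, 105 and 144 TPM and in the central pulp at 4.26, 26.7 and 17.8 TPM. Every sheath library was far above every library of the other parts, and papilla and peripheral pulp overlapped. The sheath exceeded the papilla by 4.83 ± 0.57 (SE, limma adjusted p = 0.00013) on the log2 scale. Levels of KRT14 were 2704, 1679.6 and 2308 TPM in sheath libraries, 144, 79.0 and 82.2 TPM in the papilla, 238, 115 and 151 TPM in the peripheral pulp and 11.9, 29.9 and 19.5 TPM in the central pulp. It followed the order of KRT5, with a sheath to papilla log2 difference of 4.47 ± 0.36 (SE, limma adjusted p = 9.4e-06).

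KRT15, a keratin of basal and of follicle stem cell layers in mammals, did not follow KRT5 through the pulp. Its level was 419, 271 and 335 TPM in the sheath, 182, 107 and 99.4 TPM in the peripheral pulp, 53.7, 54.6 and 53.0 TPM in the central pulp and 17.2, 8.27 and 9.83 TPM in the papilla. The groups did not overlap, and the papilla, which lay above the central pulp for KRT5, was the lowest for KRT15. For each 100 TPM of KRT5 there were 8.03 to 9.60 TPM of KRT15 in the papilla and 8.63 to 10.1 TPM in the sheath, against 67.4 to 102 TPM in peripheral and 205 to 1262 TPM in central pulp. The upper end in the central pulp comes from a library with 4.26 TPM of KRT5. KRT15 was lower in the papilla than in peripheral pulp, with a log2 difference of -3.36 ± 0.27 (SE, limma adjusted p = 1.2e-06), and than in central pulp, with -2.16 ± 0.27 (SE, limma adjusted p = 4.2e-05). For KRT5 the same papilla differed from peripheral pulp by -0.34 ± 0.57 (SE, limma adjusted p = 0.63), which did not pass the threshold, and was higher than central pulp by 3.18 ± 0.57 (SE, limma adjusted p = 0.00080).

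KRT6A, a keratin of the follicle sheath and of wounded or barrier epidermis in mammals, was at 1054, 576 and 545 TPM in the dermal sheath and at 30.2, 18.4 and 23.8 TPM in the papilla. Peripheral pulp held 211, 23.0 and 27.8 TPM and central pulp 2.97, 22.6 and 15.4 TPM. The sheath libraries were clear of all others, and the papilla overlapped both pulp parts. All peripheral libraries lay above the central ones, library 2 only narrowly. The sheath was higher than the papilla by 4.81 ± 0.84 (SE, limma adjusted p = 0.0015). KRT7, a keratin of simple epithelia, ranged less widely, at 4.54 to 7.07 TPM in the papilla, 5.61 to 9.30 TPM in the sheath, 9.81 to 11.2 TPM in the peripheral and 9.29 to 10.1 TPM in the central pulp. It was not called between sheath and papilla, with a log2 difference of 0.37 ± 0.19 (SE, limma adjusted p = 0.15). The papilla was lower than peripheral pulp, at -0.82 ± 0.19 (SE, limma adjusted p = 0.0031), and than central pulp, at -0.68 ± 0.19 (SE, limma adjusted p = 0.010), with no overlap of libraries, and both calls were lost after quantile normalization.

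TP63, the transcription factor that sets the basal keratinocyte state, was at 35.0, 26.0 and 34.7 TPM in the sheath and 4.45, 1.53 and 1.44 TPM in the papilla. Peripheral pulp had 11.4, 5.46 and 5.47 TPM and central pulp 2.26, 0.329 and 2.12 TPM. The sheath libraries were clear of all others, by 3.34 ± 0.41 (SE, limma adjusted p = 9.9e-05) over the papilla and by 2.02 ± 0.41 (SE, limma adjusted p = 0.0013) over the peripheral pulp. GRHL3, a grainyhead factor of barrier formation, was less sharply divided, at 11.6, 10.5 and 12.7 TPM in the sheath and 18.2, 5.43 and 3.80 TPM in the peripheral pulp. The groups overlapped through peripheral library 1, and the log2 difference of 0.58 ± 0.46 (SE, limma adjusted p = 0.29) was not called. Without that library it was called at 1.18, limma adjusted p = 0.012. LAMB3, a chain of the laminin that anchors the epidermis to its basement membrane, was at 41.7, 31.2 and 43.0 TPM in the sheath and at or below 4.05 TPM in every other library, and was higher in the sheath than in the papilla by 4.03 ± 0.34 (SE, limma adjusted p = 7.4e-06).

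The 4 desmosome and linker genes and the 4 adhesion and channel genes were each higher in the sheath than in the papilla. DSP, which ties desmosomes to keratin filaments, had 191, 165 and 159 TPM in the sheath, 166, 18.3 and 18.9 TPM in the peripheral pulp, 14.5, 11.6 and 14.2 TPM in papilla libraries and 0.808, 6.64 and 1.22 TPM in those of the central pulp. Peripheral library 1 reached the sheath range while the other peripheral libraries lay near the papilla. PKP1, a desmosomal plaque protein of upper epidermal layers, and PPL, a linker built into the cornified envelope, had the same order. PKP1 ranged from 85.4 to 117 TPM in sheath libraries and from 4.66 to 7.20 TPM in papilla libraries, and PPL from 57.1 to 58.5 TPM and from 2.19 to 3.92 TPM. DSG2, a desmosomal cadherin, was lower throughout, with 14.7 to 18.7 TPM in sheath libraries and no papilla library at 1 TPM. The sheath to papilla log2 differences were 3.58 ± 0.78 for DSP, 3.84 ± 0.46 for PKP1 and 3.99 ± 0.56 for PPL (SE). Their limma adjusted p-values were 0.0050, 8.9e-05 and 0.00026. DSG2 passed the filter on low values only with the sheath libraries, so its tests against the sheath are not given.

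Among the adhesion and channel genes, GJB6, a gap junction protein of the epidermis, was low outside the sheath. It was at 71.3, 60.8 and 65.6 TPM there and at no more than 2.28 TPM in any other library. Without the sheath libraries its mean falls below 1.00 TPM, the lowest mean of a gene in the deposited data of experiment 1. GJB6 thus stands there only with the sheath libraries, and its tests against the sheath are not given. CLDN1, a tight junction protein of the skin barrier, had 131, 101 and 109 TPM in the sheath, 20.4, 18.9 and 27.4 TPM in the papilla, 58.1, 9.61 and 8.00 TPM in the peripheral pulp and 1.79, 5.70 and 2.51 TPM in the central pulp. Papilla and peripheral pulp overlapped through peripheral library 1, and without it CLDN1 was called higher in the papilla (log2 difference 1.23, limma adjusted p = 0.0069). CDH1 is the cadherin of epithelial adherens junctions and EPCAM an epithelial adhesion molecule. In sheath libraries CDH1 was at 67.2, 49.6 and 56.9 TPM and EPCAM at 131, 98.0 and 137 TPM. In papilla libraries they were at 10.0, 3.53 and 4.24 TPM and at 12.8, 8.86 and 3.59 TPM. The sheath exceeded the papilla by 3.19 ± 0.56 for CDH1 and 3.83 ± 0.64 for EPCAM (SE, limma adjusted p = 0.0012 and 0.00099).

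Epidermal lipid genes and cornification genes divided the sheath from the pulp in different ways. ELOVL4, which makes the very long fatty acids of barrier lipids, was at 74.7, 77.7 and 67.3 TPM in the sheath, 13.6, 17.1 and 7.15 TPM in the central pulp, 4.12, 2.74 and 3.82 TPM in the peripheral pulp and 1.94, 1.70 and 2.41 TPM in the papilla. Central pulp libraries all lay above peripheral ones, by 1.51 on the log2 scale (limma adjusted p = 0.0014). FABP5, an epidermal fatty acid binding protein, was at 911, 651 and 798 TPM in the sheath and 1098, 197 and 180.3 TPM in the peripheral pulp, where library 1 exceeded the sheath. Its log2 difference between the 2 parts was 1.20 ± 0.69 (SE, limma adjusted p = 0.16), and it was called at 2.04, limma adjusted p = 0.0087 without peripheral library 1.

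SFN, the 14-3-3 sigma protein of stratified epithelia, had 1014, 598 and 735 TPM in the sheath and 466, 86.5 and 88.2 TPM in peripheral pulp. Papilla libraries had 45.6, 24.9 and 27.1 TPM and central pulp libraries 11.1, 20.8 and 26.0 TPM. The sheath libraries were clear of the rest, and exceeded the papilla by 4.56 ± 0.60 (SE, limma adjusted p = 0.00025). EDQM3, a protein of the epidermal differentiation complex, was at 1469, 273 and 199.7 TPM in the peripheral pulp and 733, 647 and 341 TPM in the sheath. The central pulp held 36.4, 68.5 and 74.0 TPM and the papilla 19.2, 12.4 and 31.0 TPM. For each 100 TPM of KRT5 this came to 8.80 to 22.1 TPM of EDQM3 in the sheath and 139 to 545 TPM in the peripheral pulp. ENDOU, an endoribonuclease of cornifying epithelium, was low, at 9.40 to 12.3 TPM in the sheath and no more than 2.54 TPM elsewhere. EDCH3, also of the epidermal differentiation complex, had 14.6, 9.39 and 10.8 TPM in sheath and 0, 0 and 4.02 TPM in papilla libraries. EDYM2, of the same complex, had 2.29, 1.79 and 5.45 TPM and 0, 0 and 1.63 TPM. Of the 6 libraries compared, leaving out any but papilla library 3 lost the call on EDYM2 (limma adjusted p of 0.051 to 0.16). The call on EDCH3 was lost without papilla library 2 (log2 difference 2.47, limma adjusted p = 0.050).

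Several genes of the list departed from the sheath pattern. TGM3, a transglutaminase that crosslinks cornified proteins, stood at 3.49, 3.70 and 5.39 TPM in the central pulp and below 1 TPM in all 9 other libraries. ST14, the membrane protease matriptase, was at 18.9, 15.3 and 16.0 TPM in the central pulp, 7.24, 9.39 and 8.50 TPM in the sheath, 5.85, 4.70 and 5.68 TPM in the peripheral pulp and 2.61, 1.82 and 1.38 TPM in the papilla. ST14 was lower in the sheath than in the central pulp, with a log2 difference of -0.92 ± 0.19 (SE, limma adjusted p = 0.0012). TGM3 passed the filter on low values through the central pulp alone, so its tests against that part are not given and it is left out of the counts against it. ESRP1, a splicing regulator of epithelial cells, was at 12.5, 0.342 and 0.388 TPM in the peripheral pulp, so that its high mean came from library 1, and at 2.20, 1.99 and 1.51 TPM in the sheath. RAB25, a trafficking protein of epithelia, was at 6.12, 6.73 and 4.41 TPM in the sheath, 3.57, 3.29 and 2.69 TPM in the central pulp, 5.51, 0 and 3.73 TPM in the peripheral pulp and 2.33, 0 and 0 TPM in the papilla. Its call between sheath and papilla, at 2.16 ± 0.64 (SE, limma adjusted p = 0.020), was lost on leaving out papilla library 2 or 3 or sheath library 1 or 2, with limma adjusted p of 0.056 to 0.074.

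The sheath was also higher than both pulp parts for most of the list. Compared with the peripheral pulp, 17 of the 27 genes were higher in the sheath, 0 lower and 10 not called, where 20.2% of all genes were higher and 39.1% lower. Median log2 differences were 2.02 over the members and -0.21 over all genes. Without peripheral library 1 the count was 22 higher, with GRHL3, EPCAM, ESRP1, FABP5 and EDQM3 added. ESRP1 passed the filter on low values only with the sheath libraries, so that call is partly set by the filter. DSG2 and GJB6, counted as higher in the sheath than in both pulp parts, were also kept only with the sheath libraries. Without peripheral library 2 it was 15, with DSP and ST14 lost. DSP overlapped between the parts and lost its call without any library but peripheral library 1 (limma adjusted p of 0.071 to 0.14). The call on ST14 was also lost without sheath library 2 or 3 (limma adjusted p of 0.087 and 0.060). Of the genes called over the whole table, 34.1% were higher in the sheath, and 49.4% after scaling by the median of ratios. Compared with the central pulp, 21 of the other 26 genes were higher in the sheath and 1, ST14, lower, where 22.9% of all genes were higher and 33.6% lower. The median log2 difference was 3.79 for the 27 members, TGM3 included, and -0.11 over all genes. KRT7, ESRP1, RAB25 and EDYM2 were not called.

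The peripheral pulp was richer in epidermal transcript than the central pulp and, for part of the list, than the papilla. Over the central pulp, 16 of these 26 genes were higher and 2, ELOVL4 and ST14, lower, where 15.6% of all genes were higher and 9.51% lower. Median log2 differences were 1.76 over the members, TGM3 included, and 0.08 over all genes. The 16 held all 3 basal keratins, the 4 desmosome and linker genes, TP63, LAMB3, CDH1, EPCAM, CLDN1, FABP5, SFN, EDQM3 and EDYM2. Without peripheral library 1, 15 were higher and 2 lower, and EDYM2 was the call lost. DSG2 and EDYM2 lost their calls on leaving out any 1 central pulp library, and CLDN1 without central library 1 or 3. In a fit of those 2 parts alone the calls on DSG2, CLDN1 and EDYM2 were lost. Of all called genes, 62.2% were higher in the peripheral pulp, against 43.0% when scaled by median of ratios and 47.8% when quantile normalized.

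Against the papilla, 13 genes were higher in the peripheral pulp, 0 lower and 14 not called, where 35.6% of all genes were higher and 21.7% lower in the peripheral pulp. The 13 were KRT15, KRT7, TP63, GRHL3, DSG2, PKP1, PPL, EPCAM, ST14, FABP5, SFN, EDQM3 and EDYM2, led in size by EDQM3, with a log2 difference of -4.40 ± 0.68 (SE, limma adjusted p = 0.00030) for papilla minus peripheral pulp. Without peripheral library 1, 11 were higher in the peripheral pulp, with TP63 and DSG2 lost, and 2, CLDN1 and GJB6, were higher in the papilla. Of all genes called, 37.8% were higher in the papilla, against 49.0% when scaled by median of ratios and 48.1% when quantile normalized, and KRT7, TP63, DSG2 and PPL lost their calls under the last. Against the central pulp, the papilla was higher for 9 genes, namely KRT5, KRT14, LAMB3, DSP, PKP1, CDH1, CLDN1, GJB6 and ENDOU. It was lower for 4, namely KRT15, KRT7, ST14 and ELOVL4, where 23.7% of all genes were higher and 29.2% lower. Median log2 differences were 0.75 over the members, TGM3 included, and -0.06 over all genes. The 9 fell to 4 on leaving out papilla library 1 or central library 3.

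Other epidermal genes, from lists outside the 40, are set against the 16.0% of all genes that were higher and the 21.7% that were lower in the sheath than in the papilla. Of other basal and hemidesmosome genes, 7 of 13 tested genes were higher and 1 lower than in the papilla, with COL17A1, a collagen of the hemidesmosome, at 251 ± 22.5 TPM in the sheath and 14.8 ± 5.01 TPM in the papilla (SD, n = 3). ITGA6, an integrin subunit of the same structure, was higher by 2.49 ± 0.19 (SE, limma adjusted p = 3.3e-06) on the log2 scale. Of other epithelial regulators, 11 of 17 tested genes were higher and 2 lower, with EHF higher by 3.73 ± 0.39 (SE, limma adjusted p = 2.8e-05) and TFAP2C lower, at a log2 difference of -4.06 ± 0.17 (SE, limma adjusted p = 4.1e-08). Of other keratins, 3 of 4 tested genes were higher and 0 lower, with KRT80 and KRT23 at 4.38 ± 0.32 and 3.68 ± 0.32 (SE). Other junction genes had 8 of 11 higher and 0 lower, with the gap junction gene GJB2 at 3.38 ± 0.45. For other cornification genes 8 of 12 were higher and 1 lower, and for other epidermal differentiation complex genes 3 of 9 were higher and 0 lower. Markers of other cells moved with them, since 12 of 13 leukocyte genes and 5 of 6 erythroid genes tested were higher in the sheath than in the papilla and 7 of 11 smooth muscle genes were lower.

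The pulp series of experiment 2 showed the same genes in 3 stages and in the resting apical papilla. Of the 32 genes found, KRT18 and OVOL1 were listed at 0 in all 9 libraries and the other 30 were tested. Near resting pulp had the highest mean for 27 of the 30, and for 22 of these both of its libraries were above every other library of the experiment. The share of all genes with this order was not computed, so these counts are descriptive as well. KRT7 and KRT19, both keratins of simple epithelia, were highest in early growth, and TP63 in the resting apical papilla.

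**Figure D3:**
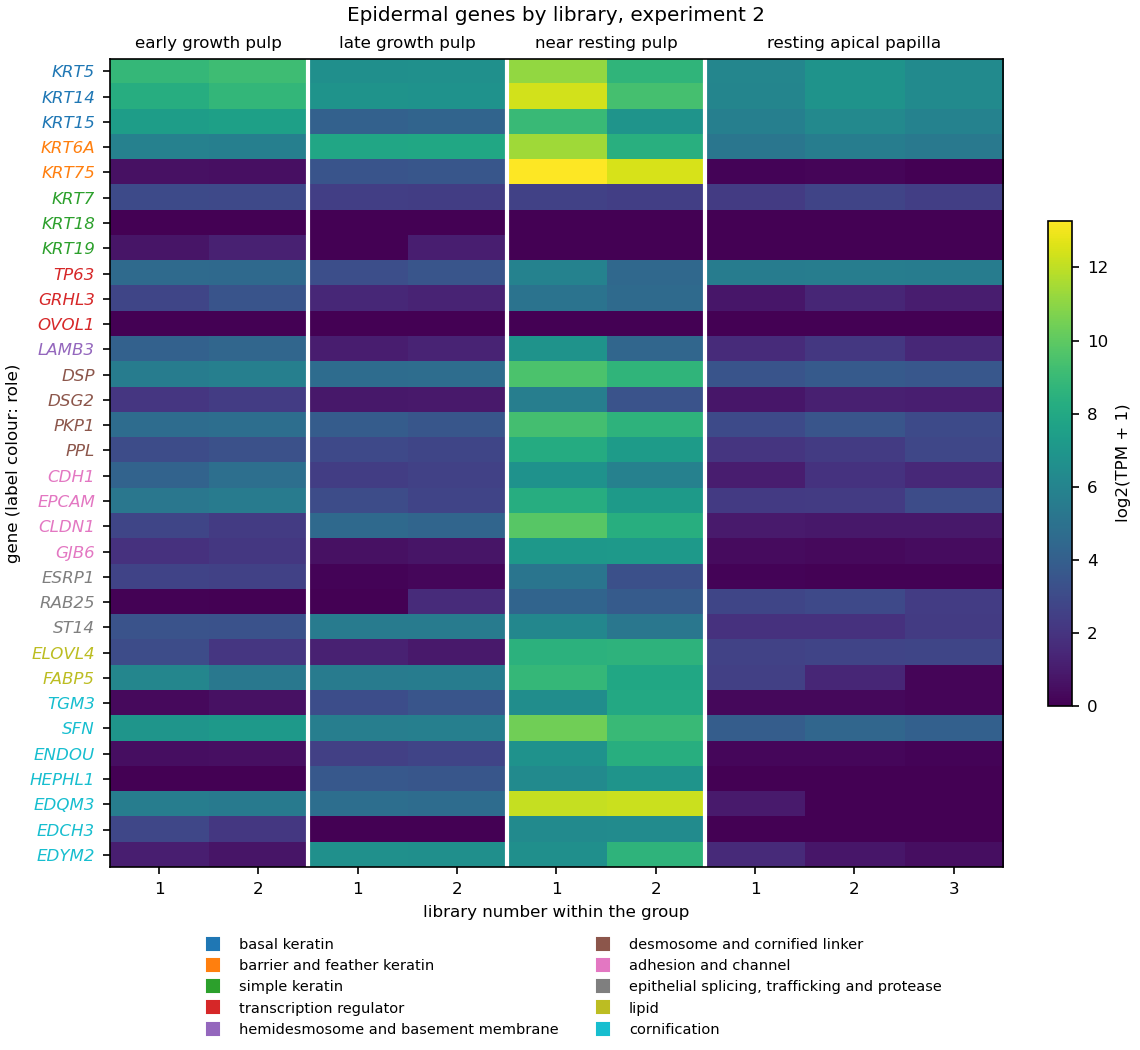
Level of each epidermal gene in the 9 libraries of experiment 2, as log2(TPM + 1), with 1 row per gene, grouped by role, and 1 column per library. Brighter colours are higher levels. The 2 near resting columns are the brightest for most rows, and the 3 columns of the resting apical papilla are dark for most rows, with KRT5, KRT14, KRT15, TP63 and KRT6A the brightest.

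From early to late growth, genes of the list were called in both directions. In late growth, 8 of the 30 genes tested were higher, 15 lower and 7 not called, where 22.4% of all genes tested were higher and 30.8% lower. The share called higher was thus close to that over all genes. The 8 higher were KRT6A and KRT75, the cornification genes TGM3, ENDOU, EDYM2 and HEPHL1, the tight junction gene CLDN1 and the protease gene ST14. The other 3 cornification genes, SFN, EDQM3 and EDCH3, were lower. The 15 lower were KRT5, KRT15, TP63, GRHL3, LAMB3, DSP, PKP1, CDH1, EPCAM, GJB6, ESRP1, ELOVL4, SFN, EDQM3 and EDCH3. The median log2 difference over the analysed members was -0.98, against -0.11 over every gene tested. Fibroblast genes summed to 44534 to 45325 TPM in late growth and 28692 to 29259.7 TPM in early growth, and the part of that shift was not tested.

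Among the genes that were lower, KRT5 was at 461 and 577 TPM in early growth and 96.5 and 99.8 TPM in late growth, while KRT15 went from 167 and 184 TPM to 16.2 and 18.8 TPM. Neither overlapped between the stages, with log2 differences of -2.38 ± 0.66 (SE, limma adjusted p = 0.017) for KRT5 and -3.26 ± 0.57 (SE, limma adjusted p = 0.0019) for KRT15. KRT14 went from 310.3 and 439.8 TPM to 112 and 108 TPM and was not called, at -1.74 ± 0.80 (SE, limma adjusted p = 0.10). In a fit of those 2 stages alone, KRT14 and DSG2 were added to the lower genes (limma adjusted p = 0.0030 and 0.0075). LAMB3 was at 16.3 and 20.2 TPM in early growth and 1.09 and 1.54 TPM in late growth, the largest drop among the anchoring and adhesion genes, at -3.05 ± 0.66 (SE, limma adjusted p = 0.0056). EPCAM went from 37.9 and 45.7 TPM to 7.45 and 5.60 TPM and CDH1 from 17.5 and 27.7 TPM to 4.25 and 4.92 TPM, with log2 differences of -2.51 ± 0.38 (SE, limma adjusted p = 0.00089) and -2.04 ± 0.39 (SE, limma adjusted p = 0.0028). The junction genes DSP, PKP1 and GJB6 had smaller differences, of -0.95 ± 0.24, -1.02 ± 0.26 and -1.34 ± 0.18 (SE, limma adjusted p = 0.012, 0.011 and 0.00053), and PPL and DSG2 were not called. EDCH3 was at 6.10 and 3.41 TPM in early growth and listed at 0 in both late growth libraries.

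Among the genes that were higher, EDYM2 stood at 1.19 and 0.665 TPM in early growth and 100.2 and 96.4 TPM in late growth, a log2 difference of 5.70 ± 0.61 (SE, limma adjusted p = 0.00017). KRT75, a keratin of the feather whose mutation gives the frizzle plumage of chickens, was at 0.487 and 0.440 TPM in early and 10.0 and 10.6 TPM in late growth, with a log2 difference of 2.95 ± 0.24 (SE, limma adjusted p = 3.7e-05). TGM3 went from 0.268 and 0.538 TPM to 7.81 and 10.5 TPM, and ENDOU from 0.397 and 0.467 TPM to 4.81 and 5.71 TPM. The stages did not overlap for any of these, and TGM3 and ENDOU were higher by 2.85 ± 0.43 (SE, limma adjusted p = 0.00093) and 2.12 ± 0.43 (SE, limma adjusted p = 0.0039). HEPHL1, a copper-containing ferroxidase of the hephaestin family, was listed at 0 in both early growth libraries and stood at 11.6 and 10.8 TPM in late growth. KRT6A went from 55.5 and 52.2 TPM to 234 and 239 TPM, and ST14 from 9.51 and 9.26 TPM to 44.4 and 45.5 TPM.

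Not every call of this comparison held when the processing changed. DSP and PKP1 lost their calls with no filter on low values and without early growth library 2, where the log2 differences were -0.87 and -0.97. DSP also lost its call without late growth library 1, and PKP1 without late growth library 2. With any 1 of the 4 growth stage libraries left out, KRT6A lost its call (limma adjusted p of 0.14 to 0.15), as did TP63 (0.056 to 0.12), EDQM3 (0.10 to 0.17), KRT5 (0.057 to 0.081) and SFN (0.054 to 0.089). The count of lower genes was 9 with no filter on low values, against 15 in the main fit. It also fell with any 1 of the 4 growth stage libraries left out, which leaves 1 library in a group. The count of 15 was thus not stable.

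KRT5, KRT6A and KRT75 are neighbours in the RefSeq annotation of the GRCg7b assembly, with no other protein coding gene between them. These neighbours differed in direction from early to late growth, KRT5 lower and the other 2 higher. CLDN1 and TP63, with 1 gene between them there, also went in opposite directions, CLDN1 from 5.92 and 3.96 TPM to 21.9 and 19.0 TPM and TP63 from 23.1 and 22.3 TPM to 8.25 and 10.5 TPM. CLDN1 was higher in late growth by 1.87 ± 0.42 (SE, limma adjusted p = 0.0063) and TP63 lower, at -1.20 ± 0.37 (SE, limma adjusted p = 0.025).

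**Figure D4:**
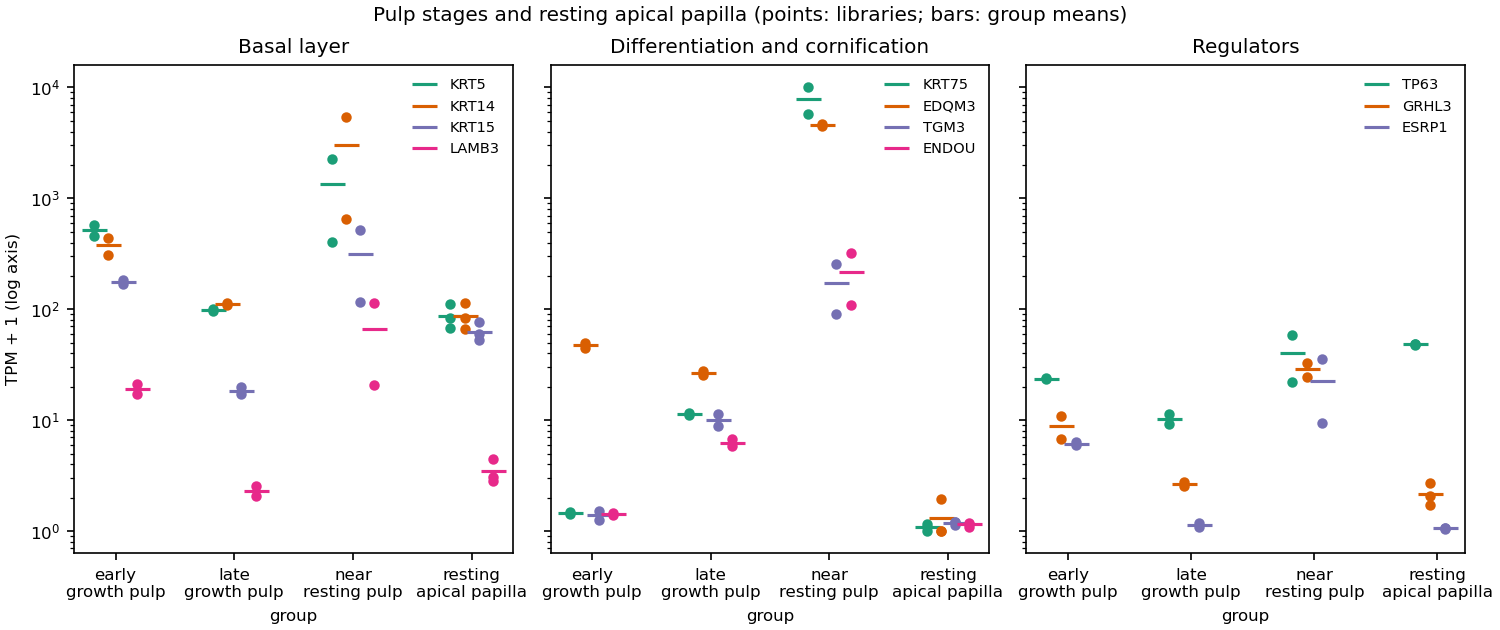
Level of selected epidermal genes in each library of early growth, late growth and near resting pulp and of the resting apical papilla, as TPM + 1 on a log axis, 1 point per library. KRT5, KRT15 and LAMB3 lie lowest of the pulp stages in late growth, KRT75, TGM3 and ENDOU are higher in each later stage, and TP63 stays at 46.6 to 48.0 TPM in the resting apical papilla.

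Near rest, most genes of the list were higher. Compared with late growth, 25 of the 30 genes tested were higher in near resting pulp, 0 lower and 5, KRT6A, KRT7, KRT19, ST14 and EDYM2, not called, where 8.77% of all genes were higher and 22.3% lower. The median log2 difference over the analysed members was 3.97, against -0.16 over every gene tested. In a fit of those 2 stages alone, 8 of the 25 calls were lost, on KRT5, KRT14, KRT15, TP63, LAMB3, DSG2, ESRP1 and RAB25. Without near resting library 1, which held more basal transcript, 26 genes were higher, with KRT6A and EDYM2 added and FABP5 lost. Of all genes called, 28.2% were higher near rest, against 50.3% when scaled by median of ratios and 42.9% when quantile normalized. Markers of vessels and pigment cells moved the other way, with endothelial genes at 445 to 596 TPM near rest and 1028 to 1056 TPM in late growth and melanocyte genes at 18.6 to 27.6 TPM near rest and 201 to 211 TPM in late growth. Of the endothelial genes 11 of 11 tested were lower near rest, and of the melanocyte genes 3 of 6. Erythroid genes summed to 252 to 489 TPM near rest and 938 to 959.9 TPM in late growth, and the part of these cells was not tested.

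KRT75 and EDQM3 had the highest mean levels of the list near rest. KRT75 stood at 9985 and 5814 TPM in the 2 near resting libraries and exceeded late growth by 9.40 ± 0.24 (SE, limma adjusted p = 9.9e-07) on the log2 scale. EDQM3 was at 4499 and 4709 TPM near rest, 26.6 and 24.5 TPM in late growth and 49.2 and 43.6 TPM in early growth, with a log2 difference from late growth of 7.44 ± 0.30 (SE, limma adjusted p = 4.0e-06). The 2 libraries held nearly the same EDQM3 level although their KRT5 differed 5.59-fold. ELOVL4 and GJB6 also agreed between the libraries, with ELOVL4 at 372 and 389 TPM and GJB6 at 134 and 142 TPM. In late growth ELOVL4 was at 1.31 and 0.901 TPM and GJB6 at 0.510 and 0.704 TPM. Both were called, with log2 differences of 7.51 ± 0.28 (SE, limma adjusted p = 3.2e-06) and 6.44 ± 0.18 (SE, limma adjusted p = 1.4e-06). EDCH3, listed at 0 in late growth, was at 80.2 and 82.9 TPM.

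Basal keratins differed strongly between the near resting libraries. KRT5 was at 2269 and 406 TPM, KRT14 at 5365 and 657 TPM and KRT15 at 513 and 115 TPM, in every case above both late growth libraries. They exceeded late growth by 3.28 ± 0.66 (SE, limma adjusted p = 0.0078), 4.08 ± 0.80 (SE, limma adjusted p = 0.0070) and 3.73 ± 0.57 (SE, limma adjusted p = 0.0022). In a fit of those 2 stages alone these calls were lost. Compared with early growth, KRT5 differed by 0.90 ± 0.66 (SE, limma adjusted p = 0.28) and KRT15 by 0.47 ± 0.57 (SE, limma adjusted p = 0.51), neither called, while KRT14 was higher by 2.34 ± 0.80 (SE, limma adjusted p = 0.037). In near resting library 2, KRT5 and KRT15 were below both early growth libraries, and without library 1 KRT14 was no longer called (log2 difference 0.83, limma adjusted p = 0.057). KRT6A was at 2694 and 337 TPM, which did not overlap late growth but was not called at 2.01 ± 0.77 (SE, limma adjusted p = 0.085), and without library 1 it was called at 0.51, limma adjusted p = 0.044.

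The junction genes of the list rose together near rest. All 4 desmosome and linker genes and all 4 adhesion and channel genes were called higher than in late growth. PKP1 went from 13.5 and 10.9 TPM in late growth to 636 and 387 TPM near rest, a rise of 5.24 ± 0.26 (SE, limma adjusted p = 1.0e-05). PPL went from 6.51 and 5.79 TPM to 289.8 and 153 TPM, a rise of 4.89 ± 0.34 (SE, limma adjusted p = 5.5e-05). DSP, at 736 and 407 TPM near rest, rose by 4.39 ± 0.24 (SE, limma adjusted p = 2.0e-05). CLDN1, at 914 and 326 TPM, rose by 4.68 ± 0.42 (SE, limma adjusted p = 0.00020), and EPCAM, at 309.8 and 152 TPM, by 4.87 ± 0.38 (SE, limma adjusted p = 0.00010). CDH1, at 108 and 55.7 TPM, rose by 3.81 ± 0.39 (SE, limma adjusted p = 0.00035). DSG2 stayed the lowest of the desmosome genes at 49.8 and 9.68 TPM. LAMB3, the basement membrane gene, was at 112 and 19.9 TPM and rose by 4.40 ± 0.66 (SE, limma adjusted p = 0.0021), with library 2 inside the early growth range.

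Regulators, splicing, trafficking and lipid genes rose as well. GRHL3 was at 5.81 and 9.89 TPM in early growth, 1.78 and 1.54 TPM in late growth and 32.2 and 23.5 TPM near rest, a rise of 3.42 ± 0.31 (SE, limma adjusted p = 0.00021) in the second step. ESRP1 stood at 5.34 and 4.98 TPM in early growth, 0.0810 and 0.189 TPM in late growth and 35.0 and 8.37 TPM near rest. Late growth was thus the lowest of the pulp stages for both. Near rest exceeded it for ESRP1 by 4.02 ± 0.52 (SE, limma adjusted p = 0.0010). In the resting apical papilla ESRP1 was at 0.0749, 0.0476 and 0.0590 TPM. RAB25, at 0 and 2.08 TPM in late growth, was at 18.4 and 13.0 TPM near rest, and FABP5 went from 44.6 and 46.5 TPM to 455 and 237 TPM. The rise of FABP5, 2.82 ± 0.67 (SE, limma adjusted p = 0.016), was not called with no filter on low values or with a pseudocount of 0.1. Its call was also lost without near resting library 1 and without late growth library 1 or 2, which leaves 1 library in a group. The log2 differences were then 2.36, 2.79 and 2.85. TP63 rose by 1.81 ± 0.37 (SE, limma adjusted p = 0.0081), and KRT7, at 4.89 and 4.45 TPM near rest and 4.57 and 4.35 TPM in late growth, was not called.

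Of the 7 cornification genes, 6 were called higher near rest than in late growth. TGM3 was at 89.1 and 256 TPM near rest, ENDOU at 109 and 323 TPM and HEPHL1 at 80.0 and 117 TPM, each higher in library 2. Their log2 differences from late growth were 3.92 ± 0.43 (SE, limma adjusted p = 0.00050), 4.91 ± 0.43 (SE, limma adjusted p = 0.00019) and 3.00 ± 0.21 (SE, limma adjusted p = 6.5e-05). EDYM2 was at 95.8 and 404 TPM, overlapped late growth and was not called. SFN, at 1375 and 521 TPM, had a fall in late growth and a rise of 4.02 ± 0.38 (SE, limma adjusted p = 0.00028) near rest. The protease gene ST14, at 69.4 and 38.1 TPM near rest, overlapped late growth and was not called.

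**Figure D5:**
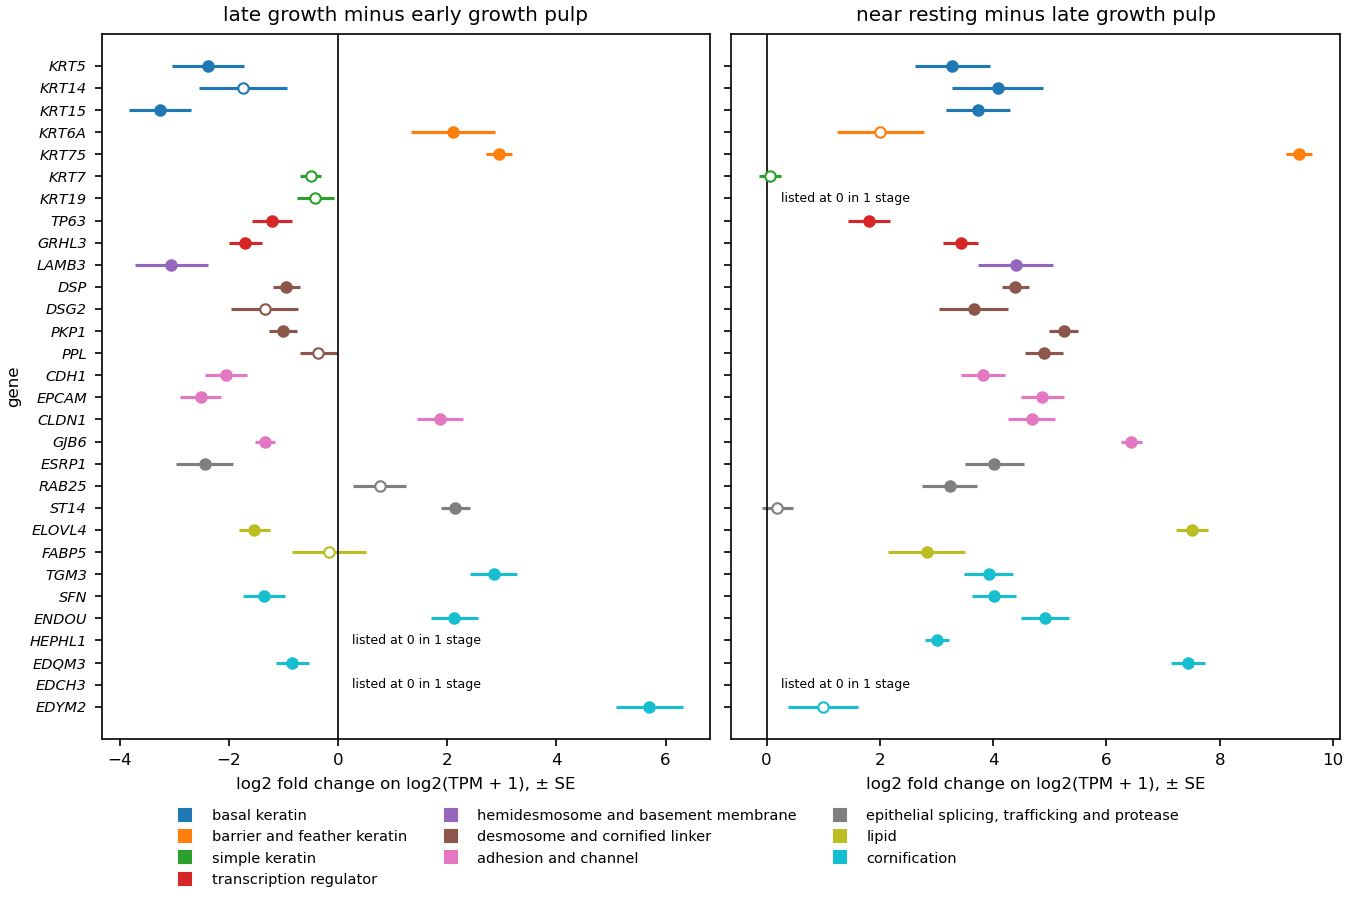
Log2 difference with its SE for each epidermal gene from early to late growth pulp and from late growth to near resting pulp, with filled points for called genes and no point for a gene listed at 0 throughout a stage. Called genes lie on both sides of 0 in the left panel and to its right in the right panel.

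Over the whole span from early growth to near rest, 24 of the 30 genes were higher, 1 lower and 5 not called, where 18.7% of all genes were higher and 37.3% lower. Median log2 differences were 3.05 over the members and -0.23 over all genes. The 5 not called were KRT5, KRT15, KRT7, TP63 and LAMB3, and 4 of these 5 are genes of the basal layer. In near resting library 2 these 4 genes lay below or inside the early growth range. Without that library the log2 differences were 2.14 for KRT5, 1.54 for KRT15, 1.30 for TP63 and 2.56 for LAMB3. The result for these 4 genes thus depended on which near resting library was kept. KRT19, at 0.663 and 1.31 TPM in early growth and listed at 0 in both near resting libraries, was the gene called lower, and that call was lost with no filter, with a filter at 5 TPM, which removes the gene, and after quantile normalization. It was also lost on leaving out any 1 of the 4 libraries compared (limma adjusted p of 0.053 to 0.19). The calls over the whole table were 33.4% higher near rest, against 51.5% when scaled by median of ratios and 45.6% when quantile normalized. The largest differences were those of KRT75 at 12.35 ± 0.24 (SE, limma adjusted p = 1.5e-07), ENDOU at 7.04 ± 0.43 (SE, limma adjusted p = 8.3e-06) and TGM3 at 6.77 ± 0.43 (SE, limma adjusted p = 1.0e-05). Without near resting library 1, 22 genes were higher, with KRT14 and FABP5 lost, and 1, KRT15, was lower, at a log2 difference of -0.60, limma adjusted p = 0.042.

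The resting apical papilla held little of the outer epidermal layers. Compared with near resting pulp, 27 of the 30 genes were lower in it, 0 higher and 3, KRT7, KRT19 and TP63, not called, where 21.6% of all genes were lower and 40.9% higher. Over the members the median log2 difference was -5.27, and 0.25 over all genes. KRT75 stood at 0.0976, 0.154 and 0 TPM in its 3 libraries and EDQM3 at 0.962, 0 and 0 TPM, while EDCH3 and HEPHL1 were listed at 0 in all 3. KRT5 remained at 66.5, 111 and 82.3 TPM, KRT14 at 65.8, 113 and 81.8 TPM and KRT15 at 52.0, 75.6 and 58.6 TPM, and KRT6A was at 35.6, 48.3 and 41.0 TPM. Compared with near resting pulp, the log2 difference was -3.49 ± 0.60 (SE, limma adjusted p = 0.0015) for KRT5 and -11.84 ± 0.27 (SE, limma adjusted p = 1.6e-07) for EDQM3. Erythroid genes summed to 2740.0 to 5497 TPM in the apical papilla, above the pulp of every stage, and their part was not tested. Of the 27, RAB25 was not called without near resting library 1 (log2 difference -1.13, limma adjusted p = 0.13). Of all genes called, 65.4% were higher in the apical papilla, against 49.4% when scaled by median of ratios.

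TP63 had its highest mean in the resting apical papilla. It stood at 46.6, 48.0 and 47.3 TPM in the 3 libraries of the apical papilla, at 23.1 and 22.3 TPM in early growth, 8.25 and 10.5 TPM in late growth and 57.4 and 21.4 TPM near rest. The 3 libraries were close to each other, above all growth stage libraries and between the 2 near resting ones. The apical papilla was higher than late growth by 2.23 ± 0.34 (SE, limma adjusted p = 0.00076) and differed from near resting pulp by 0.42 ± 0.34 (SE, limma adjusted p = 0.31). Without near resting library 1 that second difference was called, at 1.11, limma adjusted p = 0.00037. The call over early growth, 1.03 ± 0.34 (SE, limma adjusted p = 0.027), was lost on leaving out any 1 of the 5 libraries compared (limma adjusted p of 0.059 to 0.11). For each 100 TPM of KRT5, the apical papilla held 43.3 to 70.1 TPM of TP63, against 3.87 to 5.01 TPM in early growth, 8.55 to 10.5 TPM in late growth and 2.53 to 5.26 TPM near rest. The basement membrane gene LAMB3 was at 2.10, 3.49 and 1.83 TPM there, below every early growth library, and GRHL3 at 0.735, 1.71 and 1.07 TPM. KRT15, with 68.2 to 78.2 TPM for each 100 TPM of KRT5, was above its ratio of 22.6 to 28.4 TPM near rest.

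Against late growth, the apical papilla was higher for 4 genes, TP63, KRT15, RAB25 and ELOVL4, lower for 13 and not called for 13, where 32.5% of all genes were higher and 25.8% lower. Median log2 differences were -0.50 over the members and 0.09 over all genes. RAB25 was at 5.75, 6.56 and 4.12 TPM in the apical papilla and 0 and 2.08 TPM in late growth, with a log2 difference of 1.87 ± 0.44 (SE, limma adjusted p = 0.0071). ELOVL4 was at 5.26, 5.62 and 5.91 TPM against 1.31 and 0.901 TPM and was higher by 1.65 ± 0.26 (SE, limma adjusted p = 0.00086). KRT15 was higher by 1.75 ± 0.52 (SE, limma adjusted p = 0.020), a call lost without late growth library 1 or 2 or apical papilla library 2 (limma adjusted p of 0.060 to 0.095). The 13 lower genes were KRT6A, KRT75, DSP, CDH1, CLDN1, ST14, FABP5, TGM3, SFN, ENDOU, HEPHL1, EDQM3 and EDYM2. Of these, CDH1 lost its call without apical papilla library 1 or 3 (limma adjusted p of 0.12 and 0.085). CDH1 and KRT6A also lost their calls without late growth library 1 or 2, which leaves 1 library in that group. The log2 differences were then -1.06 and -0.89 for CDH1 and -2.50 and -2.47 for KRT6A. The call on CDH1 was also lost with the replicate number as a block and with no trend and no robust setting. With no filter on low values, CDH1 and KRT6A were both not called. KRT5 and KRT14 differed from late growth by -0.21 ± 0.60 (SE, limma adjusted p = 0.79) and -0.38 ± 0.73 (SE, limma adjusted p = 0.69), and their libraries overlapped.

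Against early growth, 2 genes, TP63 and RAB25, were higher in the apical papilla, 19 lower and 9 not called, where 32.1% of all genes were higher and 33.6% lower. Over the members the median log2 difference was -1.54, and 0.00 over all genes. Among the lower genes, log2 differences were -2.59 ± 0.60 (SE, limma adjusted p = 0.0057) for KRT5, -3.02 ± 0.35 (SE, limma adjusted p = 0.00014) for CDH1 and -4.34 ± 0.61 (SE, limma adjusted p = 0.00040) for FABP5. Of the 19, KRT14 and KRT19 lost their calls on leaving out any 1 apical papilla library (limma adjusted p of 0.051 to 0.090). KRT15 lost its call without apical papilla library 1 or 3, and PPL without library 1 or 2. The calls on KRT14, KRT15 and PPL were also lost without early growth library 1 or 2, which leaves 1 library in that group. The log2 differences were then -1.57 and -1.43 for KRT15 and -0.90 and -0.69 for PPL. FABP5 was at 4.73, 1.67 and 0.124 TPM in the apical papilla and at 66.5 and 39.3 TPM in early growth. RAB25, at 0.0660 and 0 TPM in early growth, was higher in the apical papilla by 2.63 ± 0.44 (SE, limma adjusted p = 0.00099).

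Of all genes, 8.77% were higher and 22.3% lower near rest than in late growth, the shares against which the other epidermal lists are read. Of other epithelial regulators, 14 of 19 tested genes were higher and 1 lower than in late growth, and of other cornification genes, 8 of 13 tested genes were higher and 0 lower. CSTA, a cysteine protease inhibitor of the cornified layer, rose by 5.58 ± 0.17 (SE, limma adjusted p = 1.8e-06), and CERS3, a ceramide synthase of barrier lipids, by 5.60 ± 0.23 (SE, limma adjusted p = 4.6e-06). Other basal genes had 7 of 13 higher and 0 lower, among them COL17A1 at 4.68 ± 0.46 (SE), and other epidermal differentiation complex genes had 7 of 10 higher and 3 lower. Other keratins had 2 of 4 higher, KRT80 at 5.65 ± 0.29 and KRT23 at 4.72 ± 0.21. Other junction genes had 4 of 11 higher, with JUP, the plaque protein plakoglobin, at 2.59 ± 0.26. The summed level of the other junction genes found was 1761 to 1878 TPM near rest and 1963 to 1968 TPM in late growth.

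Between early and late growth, where 22.4% of all genes were higher and 30.8% lower, the other lists moved in both directions. Other basal genes had 2 of 13 higher and 8 lower in late growth, and other cornification genes 6 of 13 higher and 4 lower, the latter close to the share over all genes. LAMA3, a laminin chain that pairs with LAMB3, was higher by 3.32 ± 0.12 (SE, limma adjusted p = 9.8e-07), opposite in sign to LAMB3. ABCA12, a lipid transporter of the barrier, was higher by 2.95 ± 0.15 (SE, limma adjusted p = 4.0e-06). The 4 feather corneous beta protein genes tested, which code for the structural proteins of the feather itself, were all higher in late growth, and near rest 1 rose and 3 fell. The one that rose, BKJ, was at 0.411 ± 0.0173 TPM in early growth, 149.9 ± 21.8 TPM in late growth and 3838 ± 2084 TPM near rest (SD, n = 2). In the apical papilla, 17 of 19 other epithelial regulators and 9 of 10 other epidermal differentiation complex genes were lower than in near resting pulp, where 21.6% of all genes were lower and 40.9% higher. Other basal genes had 9 of 13 lower and 4 higher.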

How the data were processed

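Total RNA from 21 libraries was sequenced, and the labels gave the groups. The authors deposited 1 table of TPM values per experiment. TPM keeps no depth, so the precision of low values is unknown, and an exact 0 is given as listed at 0. The submitters' processing notes name TopHat2 2.1.1, Cufflinks and Cuffdiff but no role for them. Genome build and annotation: not given in the sources used here. Of 13815 and 23789 genes, those with at least 1 TPM in at least 3 (experiment 1) or 2 (experiment 2) libraries were tested, 13804 and 14915 in all. Within each table, limma 3.58.1 (R 4.3.3) was fitted to log2(TPM + 1), with 1 mean per group, variances shared by all its libraries, trend and robust settings, 8 and 5 residual degrees of freedom, two-sided p-values and Benjamini-Hochberg adjustment over all genes tested. The code was tested on simulated data. Alternatives were another pseudocount, filters, scalings, variance settings, a replicate block, fits of the compared groups alone and leaving out each library. Every member is described, and other genes were named by the smallest p-values in their list. The members and lists were chosen with earlier results of these data known.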

Additional observations from a re-analysis of the deposited data

How the results depend on the processing

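No epidermal gene called in the main fit of a comparison changed direction under any alternative run. Genes not called in the main fit were not covered. KRT15 was such a gene from early growth to near rest. Its log2 difference was -0.60 without near resting library 1 and 1.54 without library 2. Over 3253 recomputed values for single genes, 3038 stayed on the same side of the threshold and 215 lost their call. Counts of epidermal genes that moved were 1 lower in sheath against peripheral pulp with no trend and no robust setting (main 0), 1 lower against central pulp with a filter at 5 TPM, which removes TGM3 (main 2, TGM3 included), and 8 lower in papilla against central pulp with a fit of those 2 groups alone (main 5, TGM3 included). With no filter, 9 were lower from early to late growth (main 15). From early growth to near rest 0 were lower with no filter, with a filter at 5 TPM and after quantile normalization, and 2 with no trend and no robust setting (main 1). Over all genes, 4641 were called between near rest and late growth, 2624 with no filter and 1443 with those 2 groups alone.

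Leaving out 1 library at a time gave these ranges. Lower in sheath than peripheral pulp were 0 to 1 genes, higher in papilla than peripheral pulp 0 to 2, and higher in papilla than central pulp 4 to 8. Lower in late than early growth were 9 to 11, lower near rest than in late growth 0 to 1, and lower near rest than in early growth 0 to 1. Higher in the apical papilla than near rest were 0 to 1 and than in early growth 1 to 2. All genes called between near rest and late growth ranged from 2864 to 5618. A lone library was assumed to vary like the other groups.

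Libraries with the same replicate number did not deviate together (correlations of -0.085 to 0.14 in experiment 1 and -0.040 to 0.11 in experiment 2). These values do not settle whether a shared number marks a shared bird, which the labels do not say. Between pulp stages with 2 libraries each, same-number and different-number correlations are equal and opposite by construction. With the replicate number as a block, 1 gene was higher in the apical papilla than in early growth (main 2, TP63 lost), and every other count stayed within 1.5 times its main value. With no filter that count was also 1. Median-of-ratios scaling moved the median log2 difference over all genes from 0.25 to 0.0015 between apical papilla and near rest and from -0.23 to 0.02 between near rest and early growth. TPM keeps no depth, so no counting interval could be given.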
